A study of Capra hircus with 20 samples.

Results

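miR-204 and miR-211 are sister microRNAs with nearly identical mature sequences and the same 5p seed, the short stretch that pairs with target mRNAs. miR-448 is another microRNA known from the choroid plexus. The table of 683 miRNA rows was searched for these 3 names, both arms. It gave 3 members, chi-miR-204-5p, chi-miR-204-3p and a row named chi-miR-211 with no arm, written below without the goat prefix chi. The search found 0 rows of miR-448, which is not analysed here. The values come from small RNA sequencing of whole hypothalamus of Jining grey goats, an early-maturing Chinese breed, at 1, 60, 120 and 180 days after birth. Each age had 5 biological replicates and no treatment, with free access to food and water at all ages, and the labels used here give neither sex nor batch. The series addresses how hypothalamic miRNAs change during sexual development.

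A miRNA hairpin yields a 5p and a 3p strand. The strand loaded into Argonaute, the guide, silences mRNAs through its seed, while the other is mostly degraded. miR-204 is transcribed from within TRPM3, a cation channel gene, and is known for its high level in the epithelia of the choroid plexus, which makes cerebrospinal fluid, and of the retinal pigment layer. In mouse, choroid plexus miR-204 has been tied to keeping neural stem cells quiescent. miR-211 lies within TRPM1, a melanocyte gene, and miR-448 within HTR2C, a serotonin receptor gene that is highly active in choroid plexus. In the RefSeq gene table of the goat assembly ARS1.2, the genes of miR-204 and miR-211 lie inside the intervals of TRPM3 and TRPM1. That gene table holds no MIR448, so the lack of a miR-448 row is not read as absence from the tissue.

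Levels are given as RPM, a share of 1000000 miRNA reads of the same library; they are not divided by length, and mature miRNAs have nearly the same length. The shallowest library had 4017937 miRNA reads and the deepest 8324880. All 3 members were read in every library and passed the filter for testing, with at least 11290 reads for miR-204-5p, 51 for miR-204-3p and 47 for miR-211. Counting error alone was at most 0.941%, 14.0% and 14.6% of these values, and it does not cover PCR copies. Replicate 2 of day 1 stood apart from the other libraries: its median Spearman correlation with them was 0.891, and it had the lowest depth. The next lowest medians, 0.916 and 0.919, were those of replicates 3 and 4 of day 60, followed by 0.921 for replicate 4 of day 1.

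miR-204-5p was by far the most abundant of the 3. Its mean over the 20 libraries was 4220 ± 2518 RPM (SD, n = 20), or 0.422% of miRNA reads, which placed it at rank 31 of 407 named miRNAs. miR-204-3p averaged 39.0 RPM and held rank 216. miR-211 averaged 23.5 RPM and held rank 243. In whole tissue, fewer cells of a type and less of a miRNA per cell cannot be told apart.

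miR-204-5p, the guide strand, was highest on day 60. The 5 libraries of day 1, replicates 1 to 5 in order, held 2444, 6882, 1618, 1848 and 2733 RPM. Those of day 60 held 2684, 8686, 10845, 7643 and 2285 RPM. Those of day 120 held 1380, 4969, 4661, 3966 and 3925 RPM, and those of day 180 held 4399, 2430, 3386, 4425 and 3189 RPM. On day 60 the libraries lay in a high group of 3 (replicates 2, 3 and 4) and a low group of 2 (replicates 1 and 5), which lay within the range of day 1. Replicates 3 and 4 of day 60 were the libraries least like the rest after replicate 2 of day 1. Replicate 2 of day 60, the other high library, did not stand apart, with a median Spearman correlation of 0.9365 with the others. Replicate 2 of day 1 was the only library of that age above 2733 RPM. The highest library exceeded the lowest 4.25-fold on day 1, 4.75-fold on day 60, 3.60-fold on day 120 and 1.82-fold on day 180.

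**Figure D1:**
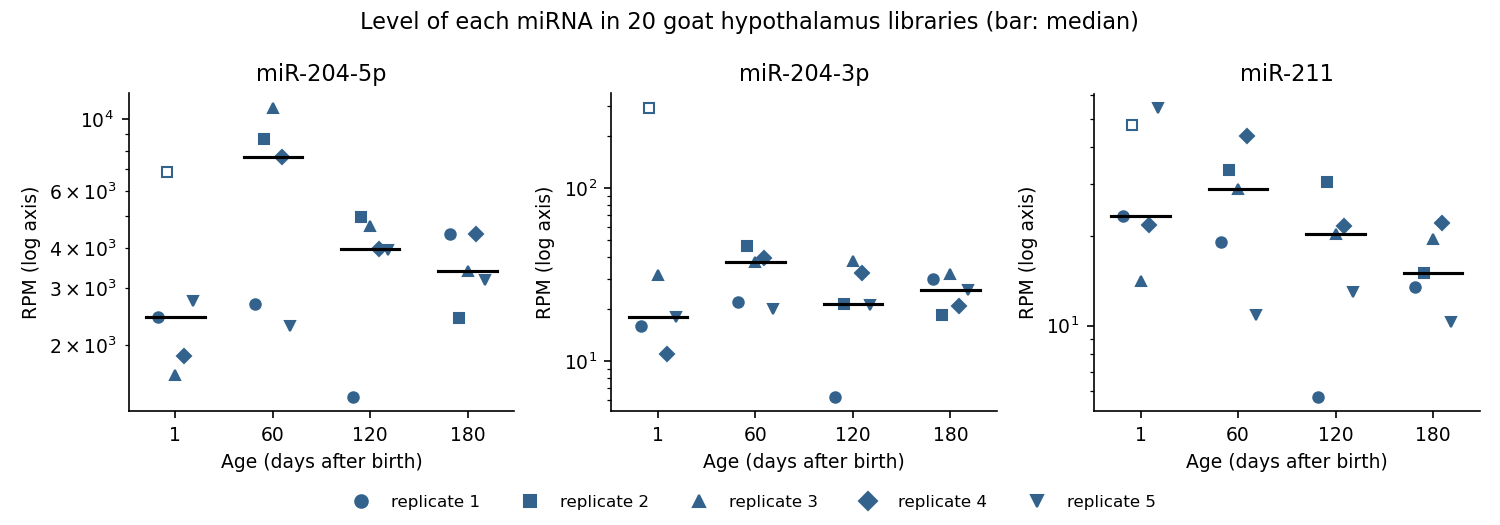
RPM on a log axis (y) of miR-204-5p, miR-204-3p and miR-211 in each library by age in days (x). Point shapes are replicate numbers, bars are medians of 5 libraries, and the open square is replicate 2 of day 1, which holds the highest miR-204-3p value of all 20 libraries, 292 RPM; replicate 1 of day 120 is the lowest library for all 3.

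miR-204-3p, the strand that is mostly discarded, was low in every library except 1. Day 1 held 16.1, 292, 31.6, 11.1 and 18.1 RPM in replicates 1 to 5. The median was 18.1 RPM on day 1, 37.7 RPM on day 60, 21.4 RPM on day 120 and 25.7 RPM on day 180. Outside day 1 the values ran from 6.24 to 46.2 RPM. The value of 292 RPM in replicate 2 of day 1 rested on 1172 reads. The day-1 mean of 73.7 ± 122 RPM (SD, n = 5) became 19.2 ± 8.74 RPM (n = 4) without that library.

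miR-211, the melanocyte-lineage sister, lay lower in the mean at each later age. The 5 libraries held 23.4, 47.5, 14.2, 21.9 and 54.3 RPM on day 1, and 19.2, 33.4, 28.9, 43.7 and 10.9 RPM on day 60. They held 5.75, 30.6, 20.3, 21.7 and 13.0 RPM on day 120, and 13.5, 15.0, 19.6, 22.2 and 10.3 RPM on day 180. The ages overlapped throughout. The stage means were 32.3 ± 17.6, 27.2 ± 12.7, 18.3 ± 9.41 and 16.1 ± 4.78 RPM from day 1 to day 180 (SD, n = 5 each). The medians were 23.4, 28.9, 20.3 and 15.0 RPM, so by median day 60 lay above day 1. Since miR-211 differs from miR-204-5p at few bases, the split of reads between them depends on the mapping, and how many miR-211 reads come from miR-204 was not tested.

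The first comparison asked whether the members changed after birth. On day 60 against day 1, miR-204-5p averaged 6429 ± 3784 and 3105 ± 2158 RPM (SD, n = 5 each). Its log2 fold change on the log2(RPM + 1) scale was 1.00 (SE 0.48), or 2.00-fold with a 95% interval from 1.01 to 3.96. It did not pass limma's test over all 414 tested miRNAs (unadjusted p = 0.0468, adjusted p = 0.237). Of the 5 day-60 libraries, 3 lay above every day-1 library. DESeq2 on recovered reads gave a log2 change of 1.43 and an adjusted p of 0.0236, so the call depends on the tool. The count of all miRNAs called in this comparison also moved, from 4 to 86 over the other settings, against 16 in the main limma fit. The DESeq2 call is therefore not read as particular to miR-204-5p. The adjusted p of miR-204-5p ranged from 0.0236 to 0.431 over the other settings and from 0.105 to 0.447 with 1 library left out. Without replicate 2 of day 1 the change was 1.34 (adjusted p = 0.106), and without replicate 3 of day 60 it was 0.75 (adjusted p = 0.447). These were the ends of the range over all libraries left out. Without replicate 4 of day 60 it was 0.87 (adjusted p = 0.409). Replicate 2 of day 60 held more miR-204-5p than replicate 4, so leaving it out lowers the change further than leaving out replicate 4.

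Neither of the other members moved beyond its error over that interval. miR-204-3p averaged 33.2 ± 11.5 RPM on day 60 and 73.7 ± 122 RPM on day 1, with a log2 fold change of -0.01 (SE 0.64, adjusted p = 0.990, limma). Without replicate 2 of day 1 the change was 0.78 (adjusted p = 0.335), so this library sets its direction. miR-211 had a log2 fold change of -0.21 (SE 0.50, adjusted p = 0.858). Over all tested miRNAs, 3.86% were called between day 60 and day 1, and none of the 3 members was among them. The 2 ages did not overlap in RPM for 3.14% of miRNAs, and they overlapped for all 3 members.

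Between day 120 and day 60 all 3 members had negative fold changes, none past the test. miR-204-5p averaged 3780 ± 1415 RPM on day 120 and 6429 ± 3784 RPM on day 60 (log2 fold change -0.63, SE 0.48, adjusted p = 0.925, limma). miR-204-3p gave -0.59 (SE 0.64, adjusted p = 0.932) and miR-211 gave -0.59 (SE 0.50, adjusted p = 0.932). Replicate 1 of day 120 was below every day-60 library for each of the 3 and was the lowest of all 20 libraries for each. Without that library the log2 fold changes were -0.30 for miR-204-5p, -0.19 for miR-204-3p and -0.25 for miR-211. These were the values nearest 0 among all fits with 1 library left out. In that comparison 0% of all miRNAs were called, with 13 at an unadjusted p under 0.05; edgeR and DESeq2 also called 0. The ages did not overlap for 0.966% of miRNAs, and no member was among these.

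On day 180 against day 120 the differences of all 3 members were smaller than their errors. miR-204-5p averaged 3566 ± 851 RPM on day 180 and 3780 ± 1415 RPM on day 120 (SD, n = 5 each; log2 fold change 0.01, SE 0.48). The mean RPM was lower on day 180 while the mean on the log2 scale was slightly higher, so no direction is read from this difference. The 95% interval of this ratio ran from 0.508 to 1.99, and changes inside it cannot be told from none. The changes of miR-204-3p and miR-211 were 0.26 (SE 0.64) and -0.04 (SE 0.50), and the adjusted p was 0.997 for each of the 3 (limma). The test called 0% of all miRNAs, with 3 at an unadjusted p under 0.05, and edgeR and DESeq2 called 0. The ages did not overlap for 0.725% of miRNAs, no member among them.

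Over the whole period, day 180 against day 1, miR-204-5p and miR-211 had fold changes of opposite sign, neither past the test. miR-204-5p averaged 3566 ± 851 RPM on day 180 and 3105 ± 2158 RPM on day 1 (log2 fold change 0.38, SE 0.48, adjusted p = 0.690, limma). miR-211 averaged 16.1 ± 4.78 RPM on day 180 and 32.3 ± 17.6 RPM on day 1 (-0.83, SE 0.50, adjusted p = 0.348). All 5 day-180 libraries held less miR-211 than the day-1 median of 23.4 RPM, and 2 lay below every day-1 library. miR-204-3p gave -0.34 (SE 0.64, adjusted p = 0.808), and 0.45 without replicate 2 of day 1 (adjusted p = 0.648). The median log2 fold change of all tested miRNAs was -0.25, and 3.38% were called; no member was. The ages did not overlap for 3.62% of miRNAs, no member among them.

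**Figure D2:**
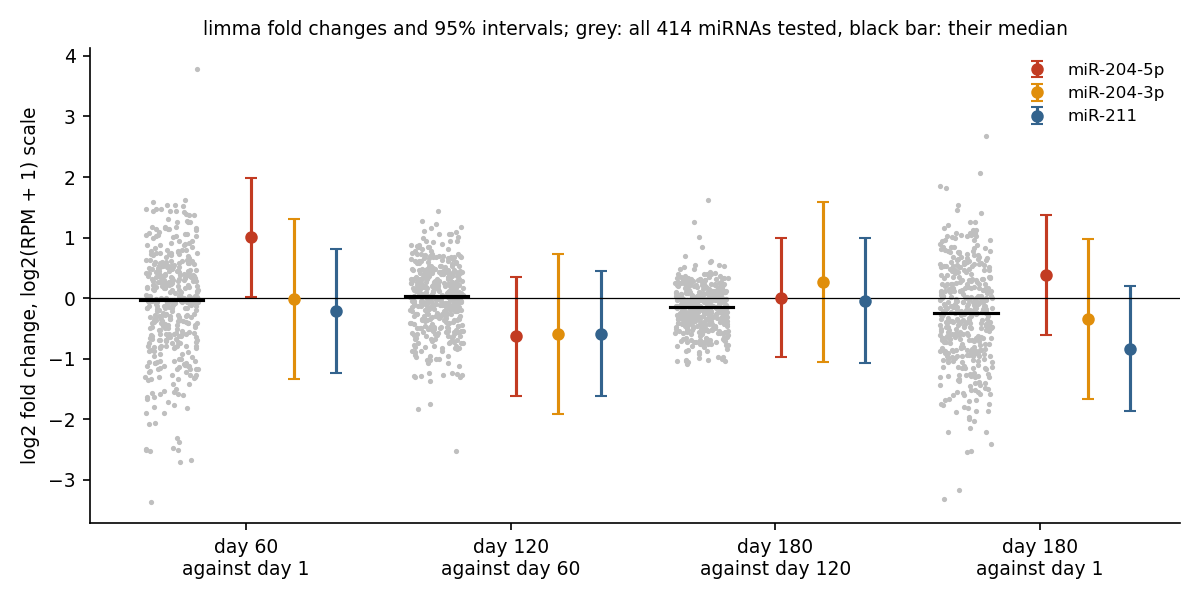
log2 fold change on the log2(RPM + 1) scale (y) for each comparison of ages (x). Coloured points are the 3 members with 95% intervals from limma, grey points are the 414 miRNAs tested and black bars their medians; only the interval of miR-204-5p on day 60 against day 1, whose change was 1.00, lies wholly above 0.

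The F test over the 4 ages gave miR-204-5p an adjusted p of 0.577, miR-204-3p 0.907 and miR-211 0.600 (limma), against 1.93% of miRNAs called. By stage mean the order of miR-204-5p was day 60, day 120, day 180 and day 1, and no neighbours in that order differed beyond their spread. For miR-211 the order was day 1, day 60, day 120 and day 180, also without a step beyond the spread. The coefficient of variation within an age, as the root mean square over the 4 ages, was 50.7% for miR-204-5p, near the median of 51.3% for the 50 named miRNAs closest to it in level. It was 89.1% for miR-204-3p, and 3 of its 50 nearest neighbours varied more. It was 46.5% for miR-211, and 40 of 50 varied more.

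The arms of miR-204 were very unequal in every library. The 5p strand made up 99.3% of the reads of both arms in the median library and was the guide in all 20. Its ratio to 3p had a median of 149 and ran from 23.6 to 288. Among 120 named miRNAs with both arms tested, miR-204 was 28th in the log2 excess of its major arm, at 7.15 against a median of 4.25 over all pairs on the log2(RPM + 1) scale.

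Day 1 held both of the libraries with the lowest arm ratios. In replicate 2 of that day the 5p share was 95.9% (95% exact Clopper-Pearson interval 95.7% to 96.2%), and in replicate 3 it was 98.1% (97.8% to 98.3%). In the other 18 libraries it was at least 99.06%. In replicate 2 of day 1, where miR-204 lay 2.60 log2 units below its own median ratio, the median deviation of the 120 pairs was -0.02, and 12 pairs lay further down than miR-204.

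For days 1, 60, 120 and 180 in turn, the log2 arm ratio averaged 6.42 ± 1.25, 7.41 ± 0.546, 7.41 ± 0.451 and 7.13 ± 0.376 (SD, n = 5 each). On day 60 it exceeded day 1 by 0.99 (exact permutation test, two-sided, p = 0.175, adjusted p = 0.444 over 4 comparisons). On day 180 it exceeded day 1 by 0.71 (exact permutation p = 0.333, adjusted p = 0.444). The differences of day 120 against day 60 and of day 180 against day 120 were -0.0035 and -0.28 (exact permutation p = 0.984 and 0.325). The F statistic over the 4 ages was 1.98 (100000 permutations, p = 0.136). Without replicate 2 of day 1 the excess of day 60 over day 1 was 0.53 and that of day 180 was 0.24.

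The level of miR-204-5p relative to miR-211 separated day 1 from the 2 oldest ages. This ratio was chosen after its values were seen and is given without a test. On day 1 miR-204-5p stood at 105, 145, 114, 84.3 and 50.3 times the level of miR-211 in replicates 1 to 5. On day 60 the ratio was 140, 260, 375, 175 and 209.8. It ran from 162 to 303 on day 120 and from 162 to 326 on day 180. The ranges of days 120 and 180 lay wholly above that of day 1, and that of day 60 overlapped it by 1 library at each end. Of the ratios of miR-204-5p to the 327 named miRNAs read in every library, 3.67% did not overlap between day 180 and day 1 and 4.89% between day 120 and day 1.

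On the log2 scale this ratio was higher by 1.22 on day 60 and by 1.25 on day 180 than on day 1. With 1 library left out, the day-180 difference ran from 1.02 to 1.41. From day 60 on it was nearly flat, with differences of -0.0046 on day 120 against day 60 and 0.04 on day 180 against day 120. miR-211 made up 1.12 ± 0.493% of the summed level of the pair on day 1, and 0.480 ± 0.170%, 0.467 ± 0.112% and 0.464 ± 0.143% on days 60, 120 and 180 (SD, n = 5 each). The contribution of reads assigned to the wrong sister was not tested.

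**Figure D3:**
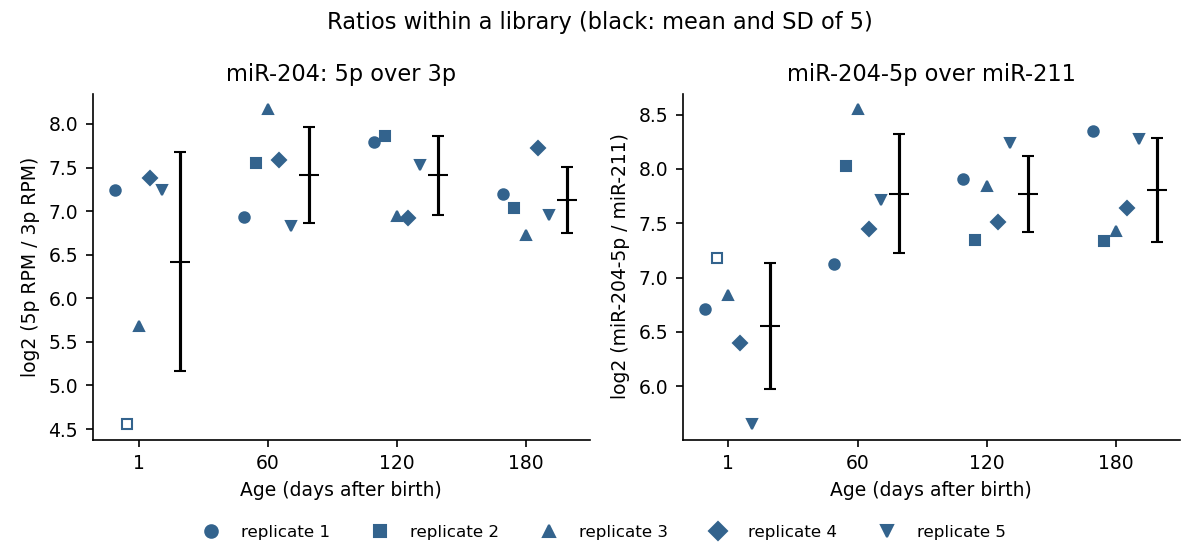
Left, log2 ratio of miR-204-5p to miR-204-3p; right, log2 ratio of miR-204-5p to miR-211 (y), by age in days (x). Points are libraries, shaped by replicate number with replicate 2 of day 1 open, and black marks are the mean and SD of 5; on the right the day-1 mean is 6.55 and those of the later ages are 7.77, 7.77 and 7.81.

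Across libraries the members varied together to differing degrees. These correlations describe 20 libraries that share a common total, and carry no test. Spearman's rho was 0.755 between the arms of miR-204, 0.599 between miR-204-5p and miR-211, and 0.346 between miR-204-3p and miR-211. Without replicate 2 of day 1 these were 0.726, 0.565 and 0.265. After the stage means were taken away (Pearson, log2, all 20 libraries) the same pairs had 0.744, 0.795 and 0.513. Which of the first 2 pairs was the closer thus depends on the measure.

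The miRNAs most like miR-204-5p over the 20 libraries were miR-3431-3p (rho 0.817), miR-30f-5p (0.806), let-7b-3p (0.759), let-7b-5p (0.753) and let-7c-5p (0.731), out of 269 named miRNAs at 10 RPM or more. let-7b and let-7c are members of let-7, a family of differentiation-linked miRNAs. let-7b-5p held 27009, 42712 and 20423 RPM in the 3 day-60 libraries with high miR-204-5p, and 13386 and 8910 RPM in replicates 1 and 5. The likeness to let-7b-5p was 0.678 after the stage means were taken away (Pearson, log2). At the other end stood miR-148b-3p (rho -0.683), miR-30d-3p (-0.758) and miR-9-5p (-0.761). miR-9-5p is a neural miRNA and the most abundant one here, so its share of the total bears on the RPM of every other row. With median-of-ratios scaling its rho was -0.590, and that of miR-148b-3p was -0.209.

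miR-204-3p was most like miR-320-3p (rho 0.824), let-7b-3p (0.777), let-7b-5p (0.749), miR-423-5p (0.735) and miR-3432-5p (0.729). Its lowest values were with miR-199b-5p (-0.565), miR-9-5p (-0.636) and miR-148b-3p (-0.803). With median-of-ratios scaling miR-199b-5p was at -0.290 and miR-148b-3p at -0.511, and by Pearson's r on log2(RPM + 1) let-7b-5p was at 0.455. By that measure 1 of the 5 miRNAs most like miR-204-3p kept a place among the first 5. miR-211 was most like miR-130b-5p (0.729), miR-323b (0.674), miR-1468-5p (0.638), miR-125a-5p (0.629) and miR-1343 (0.621). It was least like miR-374a-3p (-0.803), miR-192-5p (-0.826) and miR-340-5p (-0.845). After the stage means were taken away, 1 of the 5 miRNAs most like miR-211 kept a place among the first 5, and miR-192-5p was at -0.552 with median-of-ratios scaling. None of the 5 miRNAs most like miR-211 by Spearman's rho was among the 5 of either arm of miR-204. Lists of 5 out of 270 miRNAs need not overlap, so no unlikeness of the members is read from this. After the stage means were taken away, miR-204-5p itself was at 0.795 with miR-211. That lay above all 5 miRNAs listed for miR-211, of which miR-125a-5p was highest at 0.697.

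**Figure D4:**
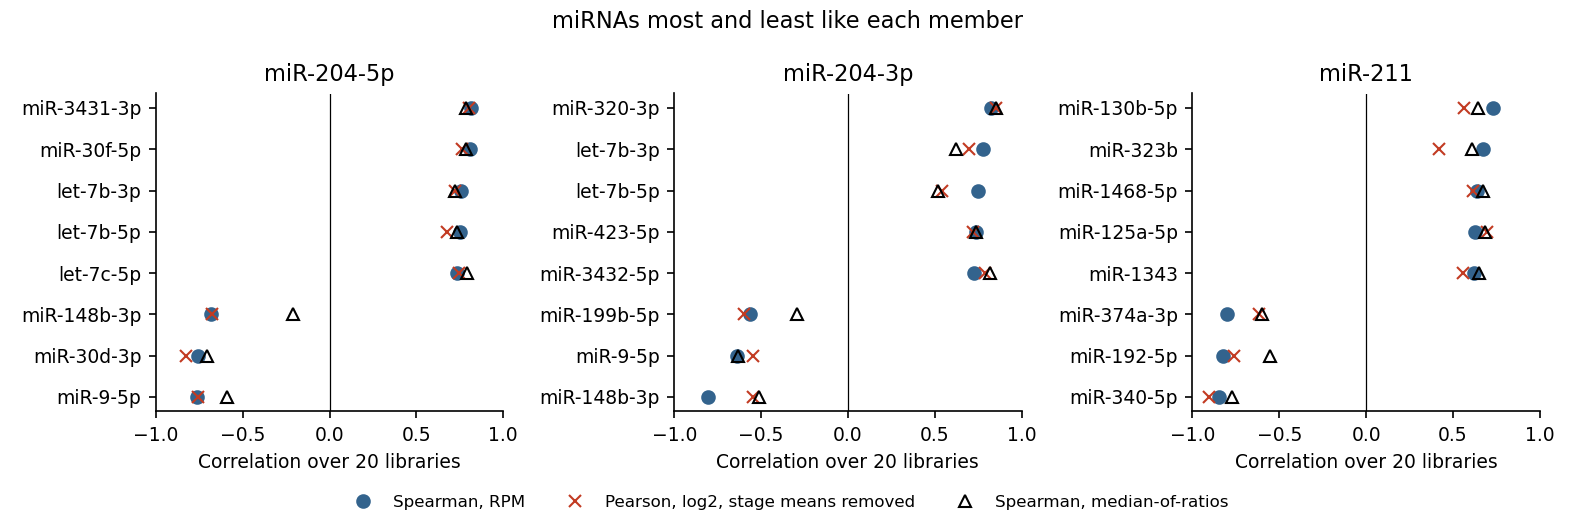
Correlation over 20 libraries (x) of each member with the 5 named miRNAs most like it and the 3 least like it by Spearman's rho (y). Circles are Spearman on RPM, crosses Pearson on log2(RPM + 1) with stage means removed, triangles Spearman after median-of-ratios scaling; every value keeps its sign, and miR-148b-3p moves from -0.683 to -0.209 against miR-204-5p with that scaling.

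The choroid plexus label could be checked only in part. None of the 6 miRNAs listed for choroid plexus and the HTR2C intron (miR-448, miR-764, miR-1264, miR-1298, miR-1911 and miR-1912) matched a row. No miRNA of that list was therefore measured here, and other miRNAs made by choroid plexus cells were not searched for. miRNAs of multiciliated cells and ependyma, the lining of the ventricles, had 8 rows, of which 4 were tested. They include both arms of miR-34c. All 4 had fold changes below 0 on day 60 against day 1, where 193 of all 414 miRNAs lay above 0. Of the 4, 1 was called, against 3.86% of all miRNAs tested: miR-449a-5p averaged 1.37 ± 0.794 RPM on day 60 and 19.5 ± 17.7 RPM on day 1. Its day-60 values ran from 0.160 to 2.33 RPM, where 3 reads make 0.360 to 0.747 RPM across libraries. Its day-1 libraries, all at 3.48 RPM or more, were by themselves enough to pass the filter. On day 180 against day 1 all 4 again lay below 0, where 155 of all 414 miRNAs lay above 0. Again miR-449a-5p alone was called, lower, against 3.38% of all miRNAs. The median log2 fold change of the 4 on day 60 against day 1 was -2.60, against -0.04 over all miRNAs. No row of the list was called in the other comparisons of neighbouring ages.

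The summed level of the 8 ciliated rows ran from 145 to 5128 RPM on day 1, from 72.0 to 395 RPM on day 60, from 114 to 2547 RPM on day 120 and from 55.4 to 2022 RPM on day 180. Its Spearman rho over 20 libraries was 0.02 with miR-204-5p, -0.08 with miR-204-3p and 0.44 with miR-211, and -0.06, -0.18 and 0.39 without replicate 2 of day 1. The 4 libraries with the most of these rows were replicate 4 of day 1 (5128 RPM), replicate 2 of day 120 (2547 RPM), replicate 4 of day 180 (2022 RPM) and replicate 2 of day 1 (1307 RPM), with miR-204-5p at 1848, 4969, 4425 and 6882 RPM in that order. The last 3 held the most miR-204-5p of their ages. The next library, replicate 3 of day 1 (1171 RPM), held the least miR-204-5p of its age, 1618 RPM.

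**Figure D5:**
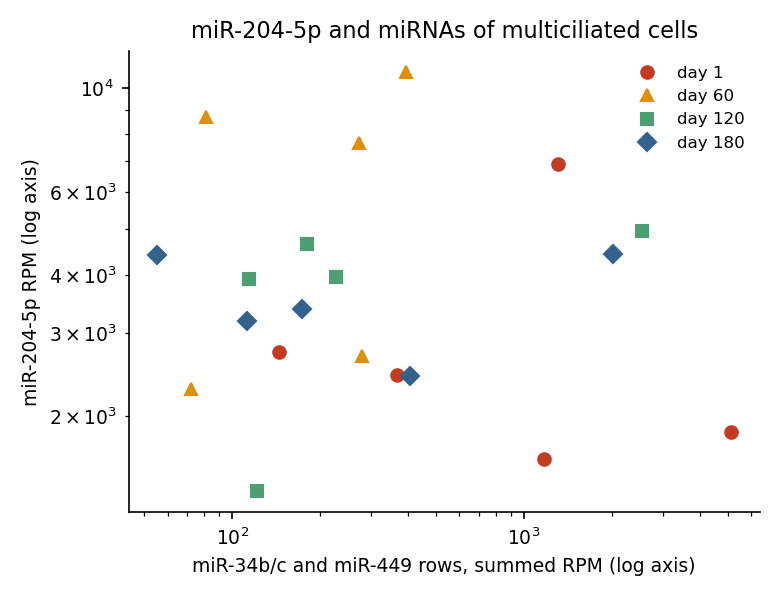
Level of miR-204-5p in RPM (y, log axis) against the summed RPM of the 8 miR-34b, miR-34c and miR-449 rows (x, log axis). Each point is 1 library, coloured and shaped by age; the 3 highest miR-204-5p values, 7643 to 10845 RPM on day 60, stand at ciliated sums of at most 395 RPM, and rho is 0.02.

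The other lists of marker miRNAs had no member called in any of the 4 comparisons of ages: epithelium and pituitary (6 tested), vessels and smooth muscle (6), meninges and fibroblasts (7), erythroid cells (3), microglia and immune cells (5), neurons (6) and oligodendrocytes (3). With 3.86%, 0%, 0% and 3.38% of all miRNAs called in the 4 comparisons, lists of this size need hold no called row, and the count says nothing about them. Of the pigment and melanocyte list miR-211 alone was measured. The summed immune rows, which include miR-146a, miR-150, miR-155 and miR-223, had the highest Spearman rho of these lists with miR-204-5p (0.632) and with miR-204-3p (0.698), and 0.588 and 0.647 without replicate 2 of day 1. They ran from 300.2 to 1677 RPM on day 1, from 359 to 728 RPM on day 60, from 241 to 672 RPM on day 120 and from 309 to 411 RPM on day 180. For the summed meningeal and fibroblast rows, of miR-140, miR-199a, miR-199b and miR-214, rho with miR-204-5p was -0.358. With miR-204-3p it was -0.015 and with miR-211 -0.180. Without replicate 2 of day 1 the 3 values were -0.493, -0.184 and -0.375. In such a sum the most abundant rows weigh most, and the rows were not correlated with miR-204-5p one by one. The part of these cell types in the levels of miR-204 and miR-211 was not tested.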

How the data were processed

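Per the labels' protocols, RNA of 20 goat hypothalami was extracted with Trizol and made into NEBNext small RNA libraries; per the submitters' processing notes, reads were aligned with Bowtie. The labels name no genome build, miRNA catalogue or counter. The deposited RPM values were made by the authors, who scaled the miRNA reads of each library to a common total of 1000000, without dividing by length. Per the file headers the columns are called TPM; the unit was read from the column sums and from values that are whole multiples of 1 step. A deposited column with the sum over libraries was not used. Whole reads were recovered for 100% of values below 1000 reads (tolerance 0.1 read).

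miRNAs at 1 RPM or more in at least 5 libraries (414) were tested with limma 3.58.1 (R 4.3.3, eBayes with trend, two-sided) on log2(RPM + 1), all libraries in 1 fit, with Benjamini-Hochberg adjustment at 0.05 over all tested miRNAs. The arm ratio used an exact permutation test over samples. Fold changes understate those of low miRNAs.

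Alternatives were other pseudocounts, filters and scalings, no trend, only the ages compared, a replicate block, each library left out, edgeR 4.0.16 (57 calls with TMM on day 60 against day 1, against 16 by limma) and DESeq2 1.42.0 on the recovered reads. Methods were tested on simulated data. Members and lists were chosen with earlier results of these data known. Beside the members and marker lists, the named miRNAs are the 5 most and 3 least correlated with each member; the rule was set for the arms of miR-204 and extended to miR-211. No 2 libraries of an age agreed within sampling noise (40 pairs, smallest chi-square per degree of freedom 357).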

Additional observations from a re-analysis of the deposited data

Results flagged for a closer look

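2 of 20 groups of 5 values held a library set apart from the rest by more than Dixon's 95% critical value of 0.71. Chance flags about 1 in 20 independent groups. These groups share libraries and include ratios of the same values, so their count is not set against that rate. Both were replicate 2 of day 1. It held 6882 RPM of miR-204-5p, with a gap to the next library of 0.788 of the range, and 292 RPM of miR-204-3p, with a gap of 0.927. In that library miR-211 was at 47.5 RPM, below the 54.3 RPM of replicate 5, and was not set apart. Its depth was the lowest of the 20, and the part of depth in these values was not tested. On day 120, replicate 1 lay below the next library of miR-204-5p by 0.709 of the range, just short of the critical value.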

How the results depend on the processing

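Over 586 alternative values for the members and the arm ratio, 1 gained a call and 30 changed sign, none of these past the threshold; the cause was not tested. DESeq2 called miR-204-5p on day 60 against day 1 (log2 1.43). miR-204-3p on day 60 against day 1 became 0.0059 with a pseudocount of 0.1, 0.10 with median-of-ratios and 0.26 with quantile scaling, and on day 180 against day 1 it became 0.15 with quantile scaling. edgeR on library size alone gave it -1.15 on day 60 and -1.53 on day 180, each against day 1 (adjusted p = 0.300 and 0.150). miR-211 on day 180 against day 120 became 0.15 with median-of-ratios scaling, 0.19 with quantile scaling, 0.10 with edgeR and TMM and 0.10 with DESeq2. miR-204-5p on day 180 against day 120 became -0.084 with edgeR on library size alone. The arm ratio on day 180 against day 1 became -0.20 as a difference of medians.

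With 1 library left out, the log2 change of miR-204-5p ranged from -0.32 to 0.14 on day 180 against day 120. miR-204-3p ranged from -0.37 to 0.78 on day 60 against day 1, from -0.13 to 0.47 on day 180 against day 120 and from -0.70 to 0.45 on day 180 against day 1. miR-211 ranged from -0.45 to 0.068 on day 60 against day 1 and from -0.37 to 0.18 on day 180 against day 120, and the arm ratio from -0.15 to 0.19 on day 120 against day 60. No member was called in any of these fits.

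The count of all miRNAs called ran from 2 to 86 on day 60 against day 1 (16 in limma with all libraries), from 5 to 61 on day 180 against day 1 (14) and from 5 to 90 in the F test (8) over all alternatives. Same-numbered libraries of different ages are different animals, and 11 of 30 such pairs correlated above 0.1 after stage means were removed. The median correlation was 0.069 for same-numbered and -0.0455 for other-numbered pairs, and the share of other-numbered pairs above 0.1 was not computed. By correlation, 4 of 20 libraries were closest to their own number, as many as chance gives among 5 numbers. With the replicate block, miR-204-5p kept a change of 1.00 on day 60 against day 1 (adjusted p = 0.212), no member gained a call, and 21 miRNAs were called in that comparison. Standard errors of 0.48 to 0.64 log2 units limit what can be seen: the interval of miR-211 on day 180 against day 1 ran from 0.275 to 1.14-fold.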
